A study of Mus musculus with 8 samples.

Results

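The core pluripotency factors followed here are 6 genes, Pou5f1, Sox2, Nanog, Sall4, Lin28a and Utf1, chosen by name from the 18094 genes of the expression table. All 6 passed the filter on low values, as did 15767 genes in all. They were read in 8 RNA-seq libraries of E14Tg2A mouse embryonic stem cells (mESCs) and of embryoid bodies (EBs), with 2 libraries for each genotype and day. WT and CTCF-K20R mESCs were collected on day 0, when both were kept on mitomycin C-inactivated mouse embryo fibroblasts with serum, LIF and the 2i inhibitors. WT and CTCF-K20R EBs were collected on day 4 of differentiation in hanging drops, in serum without LIF. In the CTCF-K20R cells the lysine at position 20 of CTCF, the zinc finger protein that organizes chromatin loops, is replaced by arginine through CRISPR/Cas9 editing with a donor vector and drug selection. The number of CTCF-K20R colonies used for RNA-seq was not given in the sources used here, so the mutation cannot be told apart from a property of the colony or the culture. The comparison asks how the mutation bears on the differentiation of mESCs.

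POU5F1 (also called OCT4) and SOX2 bind DNA side by side at many enhancers of mESCs and, with NANOG, keep their own genes and many others active. SALL4, a zinc finger protein, and UTF1, a chromatin-bound protein, act with this circuit, while LIN28A is an RNA-binding protein that blocks the maturation of let-7 microRNAs. As mESCs leave the naive state, Pou5f1 is kept for a time in epiblast-like cells while naive factors are lost, and the core factors are shut down in most cells as the germ layers form.

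The members lie on different chromosomes (GRCm38, GENCODE annotation). Pou5f1 (ENSMUSG00000024406) is at chr17:35506018-35510772 on the plus strand, Sox2 (ENSMUSG00000074637) at chr3:34650405-34652461 on the plus strand, and Nanog (ENSMUSG00000012396) at chr6:122707489-122714633 on the plus strand. Sall4 (ENSMUSG00000027547) is at chr2:168748332-168767943 on the minus strand, Lin28a (ENSMUSG00000050966) at chr4:134003330-134018841 on the minus strand, and Utf1 (ENSMUSG00000047751) at chr7:139943789-139945112 on the plus strand. All are annotated as protein coding.

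To show how the members differ at their start sites, the 250 bases before the RefSeq start of 4 of them are given 5′ to 3′ (GRCm38.p6). Capitals mark 3 motifs searched on both strands, namely the octamer core TTTGCAT read by POU factors, the SOX core ACAATG and the GC box GGGCGG. The first 3 sequences hold an octamer or a SOX core, and that of Utf1 holds neither.
Nanog (plus strand, chr6:122707239-122707488): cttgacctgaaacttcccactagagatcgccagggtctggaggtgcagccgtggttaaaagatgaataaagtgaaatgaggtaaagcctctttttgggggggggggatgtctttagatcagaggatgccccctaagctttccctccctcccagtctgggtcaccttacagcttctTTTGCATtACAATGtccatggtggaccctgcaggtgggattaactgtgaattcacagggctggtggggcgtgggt
Sox2 (plus strand, chr3:34649745-34649994): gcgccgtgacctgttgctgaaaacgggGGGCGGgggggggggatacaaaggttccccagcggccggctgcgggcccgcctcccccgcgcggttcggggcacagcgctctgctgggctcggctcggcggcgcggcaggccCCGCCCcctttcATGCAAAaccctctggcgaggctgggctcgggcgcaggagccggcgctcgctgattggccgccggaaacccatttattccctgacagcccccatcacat
Lin28a (minus strand, chr4:134018817-134019066): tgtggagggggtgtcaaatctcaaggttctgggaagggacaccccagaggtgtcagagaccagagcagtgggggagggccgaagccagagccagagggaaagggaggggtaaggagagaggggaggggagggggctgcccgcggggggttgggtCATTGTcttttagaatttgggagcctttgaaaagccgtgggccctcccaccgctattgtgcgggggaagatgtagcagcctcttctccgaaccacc
Utf1 (plus strand, chr7:139943606-139943855): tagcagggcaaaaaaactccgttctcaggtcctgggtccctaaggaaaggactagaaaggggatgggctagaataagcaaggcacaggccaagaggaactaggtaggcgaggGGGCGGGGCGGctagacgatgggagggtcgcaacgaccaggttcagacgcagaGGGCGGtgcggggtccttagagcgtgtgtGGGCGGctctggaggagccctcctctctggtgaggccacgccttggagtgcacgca
Nanog carried the octamer core at -75, followed after 1 base by the SOX core at -67, the arrangement in which POU5F1 and SOX2 bind together. Of 32851 RefSeq promoter windows of 300 bases (250 before to 50 after the start, 27025 genes), only 2 (0.00609%) held this exact arrangement, and both are starts of Nanog. The octamer core stood at -99 in Sox2 and in 4.63% of all windows. The SOX core stood at -96 in Lin28a and in 12.6% of all windows. Utf1 had 4 GC boxes, 2 of them sharing a base, at -138, -133, -85 and -56, where 35.7% of all windows held at least 1. All these shares include the 50 bases after the start, which are not printed and where Lin28a had 1 GC box. Pou5f1, not printed, had 1 GC box and neither of the other motifs before its first listed start. A SOX core stood at -158 of its second listed start. A window for Sall4 was not used here. A match describes the letters only, and binding was not measured at these positions.

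The values are normalized counts, that is, reads assigned to each gene divided by factors that the authors estimated. Library sums ranged from 19412659 to 21311513 normalized counts, and a signal of 3 reads corresponded to 2.43 to 3.43 normalized counts, far below every value of the members. The difference within each WT pair was smaller than sampling noise, and each pair was counted as 1 sample, so that 1 WT and 2 CTCF-K20R samples entered the fit on each day. The study describes its RNA-seq experiments as independent, and the labels name no separate cultures. The p-values measure the spread between the CTCF-K20R libraries only. Naive markers identified the mESC libraries, with Esrrb between 16202 and 17343 normalized counts in all 4, and the mesoderm marker T reached 20696 and 20904 in the WT EBs.

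In mESCs the 6 genes were all expressed, and the classical trio differed little between genotypes. Pou5f1 was at 24629 and 24703 normalized counts in the WT libraries and at 23485 and 24558 in the CTCF-K20R libraries. Sox2 was at 13107 and 13162 in WT mESCs and at 13545 and 12811 in CTCF-K20R mESCs, where the groups overlapped. Nanog was at 15423 and 15415 in WT mESCs and at 16549 and 16387 in CTCF-K20R mESCs. The log2 fold change of CTCF-K20R over WT on day 0 was -0.04 for Pou5f1 (95% interval -0.13 to 0.05), 0.00 for Sox2 (-0.12 to 0.12) and 0.09 for Nanog (-0.02 to 0.21). In limma with Benjamini-Hochberg adjustment over all genes tested, the adjusted p was 0.518, 0.966 and 0.215, respectively. The intervals leave room for differences of up to 0.21 on the log2 scale and exclude larger ones under this model.

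The other members were lower in CTCF-K20R mESCs to different degrees. Lin28a was at 4068 and 4108 normalized counts in WT mESCs and at 2357 and 2235 in CTCF-K20R mESCs. Utf1 was at 3687 and 3668 in WT mESCs and at 2393 and 2411 in CTCF-K20R mESCs. Sall4 was at 5153 and 5275 in WT mESCs and at 4305 and 4236 in CTCF-K20R mESCs. Both mutant libraries of each of these genes were below both WT libraries, as were those of Pou5f1, while those of Nanog were above both. The share of all genes with such a separation on day 0 was not counted. Lin28a was 1.78-fold lower (log2 fold change -0.83, SE 0.049, limma adjusted p = 0.00145) and Utf1 1.53-fold lower (-0.61, SE 0.056, limma adjusted p = 0.00306). Sall4 did not pass the threshold, with a log2 fold change of -0.29 (SE 0.078, limma adjusted p = 0.0642).

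A differentially expressed gene (DEG) had to reach an adjusted p under 0.05 and a log2 fold change beyond 1 in either direction. On day 0, 0 of the 6 members was a DEG in either direction, against 1.19% of all genes tested that were higher and 2.6% that were lower. Those shares were 0 in limma without replicate 1 or replicate 2 of the CTCF-K20R EBs, where 4513 and 4507 genes had an unadjusted p under 0.05. At an unadjusted p under 0.05 in limma, 0 members were higher and 3 lower (Sall4, Lin28a and Utf1). Of the 15767 genes tested, 4962 had such a p, counting both directions. By an adjusted p under 0.05 alone, 0 members were higher and 2 (Lin28a and Utf1) lower, against 7.83% and 7.57% of all genes. These calls of Lin28a and Utf1 did not hold without the mean-variance trend (limma adjusted p of 0.0544 and 0.0661), nor without either CTCF-K20R EB library, which helps to set the spread (0.0585 and 0.0590 for both genes).

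**Figure D1:**
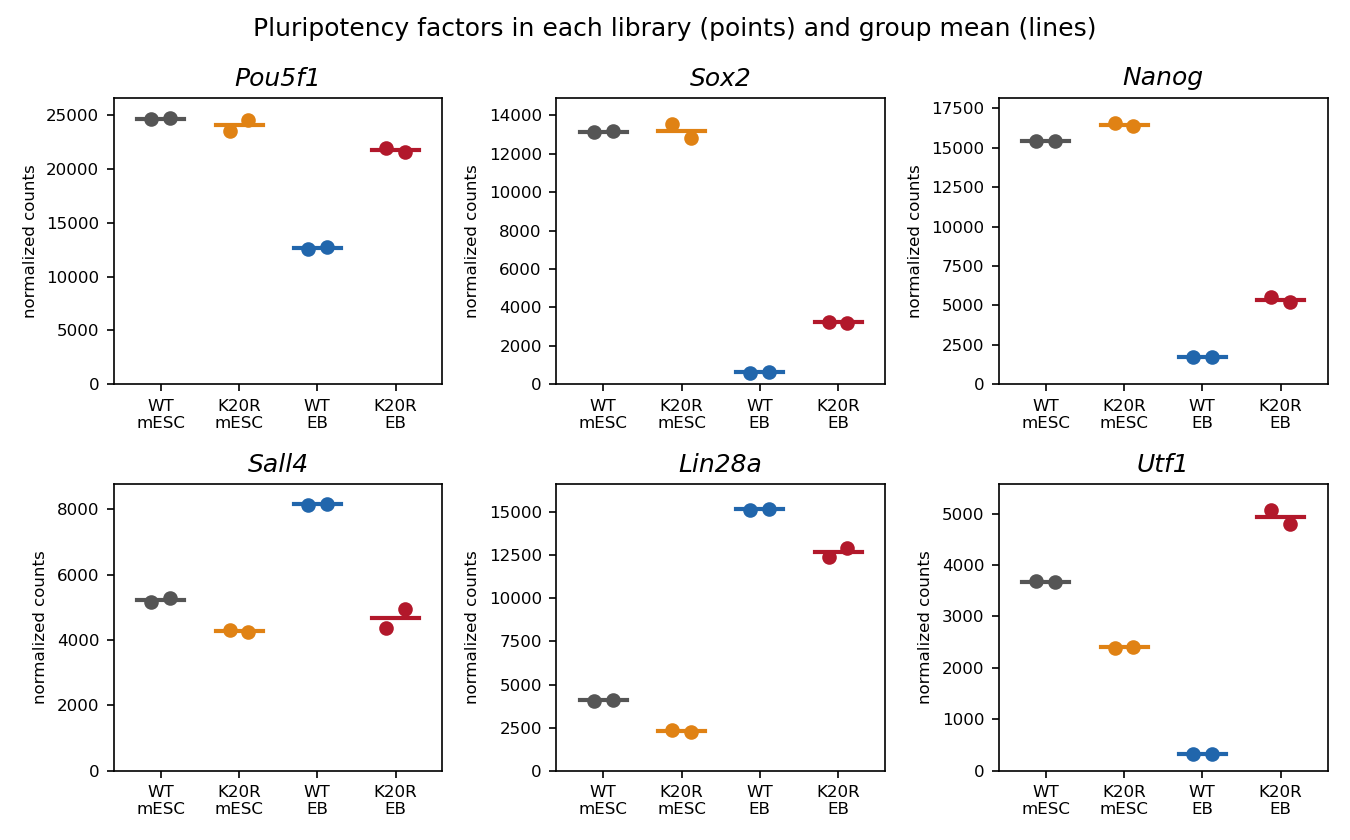
Normalized counts (vertical axes, from 0) of the 6 members in each library, with 1 panel per gene, 2 points per group and a line at the group mean. In the EBs the CTCF-K20R points of Pou5f1, Sox2, Nanog and Utf1 lie above the WT points, and those of Sall4 and Lin28a below them; Utf1 reaches 5069 and 4802 in CTCF-K20R EBs against 326.3 and 319.7 in WT EBs.

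WT cells changed most in Sox2, Utf1 and Nanog between mESCs and EBs. Sox2 stood at 607.6 and 618.2 normalized counts in WT EBs, which is 4.67% of its WT mESC level. Utf1 stood at 326.3 and 319.7, or 8.78%, and Nanog at 1702 and 1698, or 11.0%. Pou5f1, at 12595 and 12696, kept 51.3% of its mESC level. Sall4 and Lin28a went the other way. Sall4 was at 8146 and 8156 normalized counts in WT EBs (156% of the mESC level) and Lin28a at 15158 and 15200 (371%). Each WT pair was counted as 1 sample, so this change sets single samples against each other and was not tested. Past an absolute log2 fold change of 1 stood 3 members that were lower (Sox2, Utf1 and Nanog) and 1 that was higher (Lin28a), against 16.3% and 18.9% of all genes tested.

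CTCF-K20R EBs differed from their own mESCs in another order. Pou5f1 was at 21940 and 21590 normalized counts, 90.6% of the CTCF-K20R mESC level, and Sall4 at 4363 and 4959, 109%. Sox2 was at 3240 and 3192 (24.4%) and Nanog at 5510 and 5208 (32.5%). Lin28a was at 12431 and 12918 (552%), and Utf1 at 5069 and 4802 (205%), above its level in mESCs. From day 0 to day 4, Sox2 fell by 2.03 (SE 0.039) and Nanog by 1.62 (SE 0.036) on the log2 scale, with limma adjusted p of 3.32e-06 and 4.22e-06. Lin28a rose by 2.46 (SE 0.040, limma adjusted p = 2.29e-06). Utf1 rose by 1.04 (SE 0.045, limma adjusted p = 2.91e-05), a value just past the threshold that was 0.999, and no longer a DEG, without replicate 1 of the CTCF-K20R EBs. For Pou5f1 the log2 change was -0.14 (SE 0.029, limma adjusted p = 0.00879, and 0.0594 to 0.0982 without replicate 2 of the CTCF-K20R mESCs or either CTCF-K20R EB library and 0.152 without the mean-variance trend) and for Sall4 0.12 (SE 0.064, limma adjusted p = 0.149). Thus 2 members were DEGs in each direction in the mutant cells, against 14.5% of all genes tested that rose and 11.6% that fell.

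**Figure D2:**
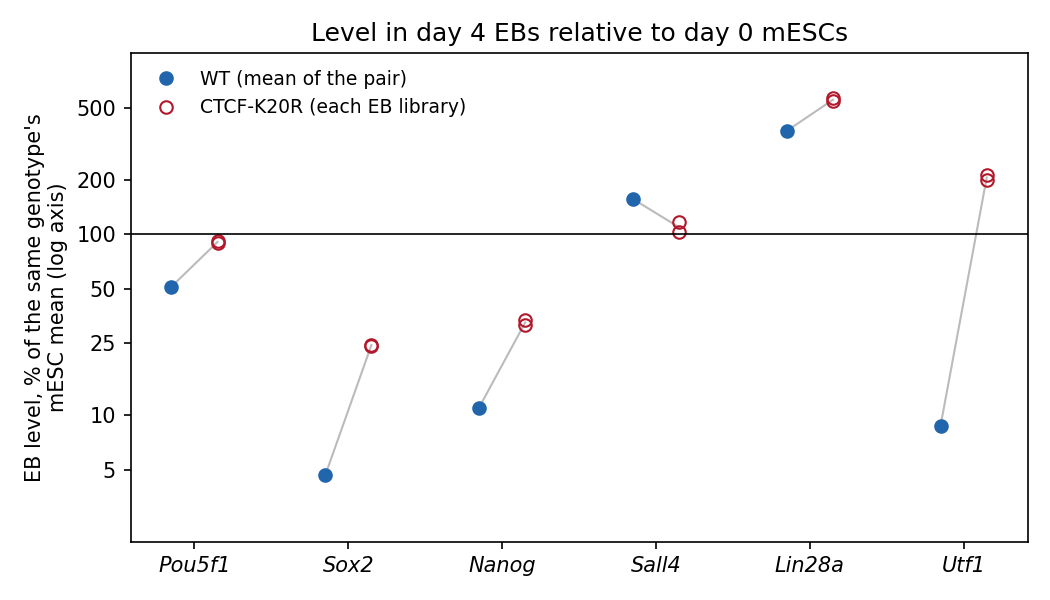
Level of each member in day 4 EBs as a percent of the day 0 mESC mean of the same genotype (log axis), for the mean of the WT pair (filled) and for each CTCF-K20R EB library (open). Sox2 is at 4.67% in WT and 24.4% in CTCF-K20R EBs, Nanog at 11.0% and 32.5%, and Utf1 passes from 8.78% to 205%.

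Between the genotypes on day 4, Utf1, Sox2 and Nanog were the members that were DEGs, and all were higher in CTCF-K20R EBs. Utf1, at 4936 ± 189 normalized counts in CTCF-K20R EBs (mean ± SD, n = 2), was 15.2-fold higher than in WT EBs, with a log2 fold change of 3.93 (SE 0.056, 95% interval 3.79 to 4.07, limma adjusted p = 7.67e-06). Sox2, at 3216 ± 34.1 (SD, n = 2), was 5.24-fold higher (log2 fold change 2.39, SE 0.048, 95% interval 2.27 to 2.51, limma adjusted p = 1.58e-05). Nanog, at 5359 ± 214 (SD, n = 2), was 3.15-fold higher (log2 fold change 1.66, SE 0.045, 95% interval 1.54 to 1.77, limma adjusted p = 2.82e-05). Even so, Sox2 and Nanog in CTCF-K20R EBs remained below the mESC levels of both genotypes, while Utf1 was above both.

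Pou5f1 was higher as well, by 1.72-fold (21765 ± 247 normalized counts, SD, n = 2), but under the fold threshold. Its log2 fold change was 0.78 (SE 0.036, 95% interval 0.69 to 0.87, limma adjusted p = 0.000110). Sall4 and Lin28a were lower in CTCF-K20R EBs. Sall4 was 1.75-fold lower (log2 fold change -0.81, SE 0.078, limma adjusted p = 0.000992), and its 95% interval ran from -0.61 to just past the fold threshold. Lin28a was 1.20-fold lower (log2 fold change -0.26, SE 0.049, limma adjusted p = 0.0102). In each of the 6 genes both CTCF-K20R libraries lay on the same side of both WT libraries. The same held for Pou5f1 on day 0, at a log2 fold change of only -0.04. The share of all genes with such a separation was not counted. Each WT pair was counted as 1 sample, so the separation adds little to the fit.

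On day 4 the members thus counted 3 DEGs that were higher and 0 that were lower, where 6.89% and 8.65% of all genes tested were called. The DEGs of all genes numbered 1087 higher and 1364 lower, a split that became 1462 and 1214 with quantile normalization and 719 and 890 without replicate 1 of the CTCF-K20R EBs. By adjusted p alone 4 members were higher and 2 lower, against 21.5% and 18.6%. The call of Lin28a by adjusted p alone did not hold without replicate 1 or replicate 2 of the CTCF-K20R EBs (limma adjusted p of 0.0850 and 0.0633) or without the mean-variance trend (0.108). RNA of whole EBs was measured, so more cells that express a gene and more RNA of it per cell cannot be told apart.

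**Figure D3:**
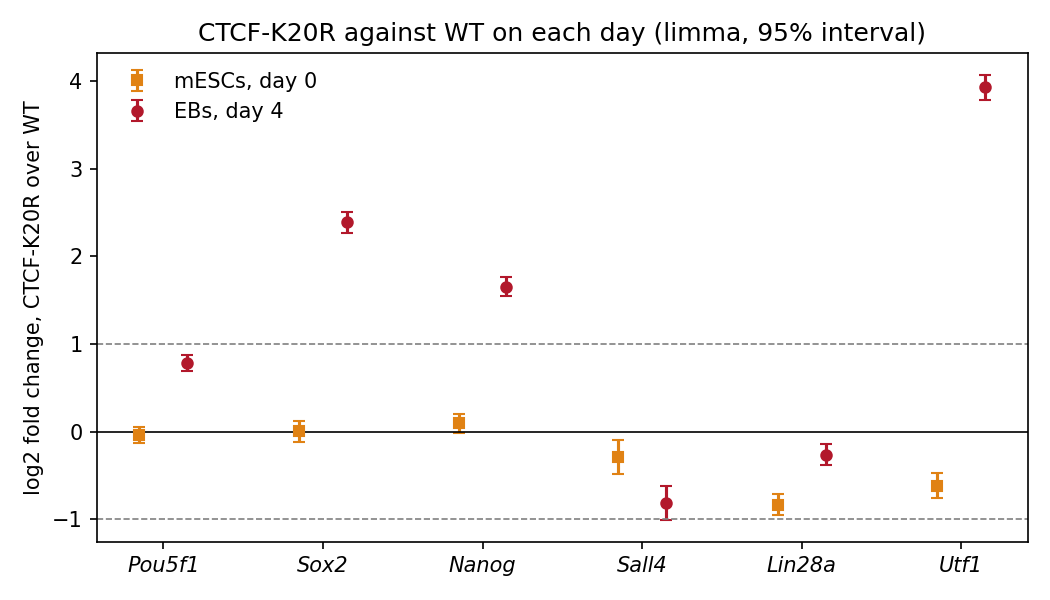
Log2 fold change of CTCF-K20R over WT (vertical axis) for each member in mESCs on day 0 (squares) and in EBs on day 4 (circles), with 95% intervals from limma and dashed lines at the fold threshold of 1. Pou5f1, Sox2 and Nanog lie near 0 on day 0 and at 0.78, 2.39 and 1.66 on day 4, and Utf1 goes from -0.61 to 3.93.

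The genotype difference was itself tested between the days (interaction, the log2 fold change on day 4 minus that on day 0, which uses the same libraries as the comparisons above). It was 4.54 for Utf1 (SE 0.079, limma adjusted p = 3.60e-05), 2.39 for Sox2 (SE 0.068, limma adjusted p = 0.000101) and 1.56 for Nanog (SE 0.063, limma adjusted p = 0.000186). Pou5f1 had 0.82 (SE 0.051, limma adjusted p = 0.000554), and Lin28a 0.57 (SE 0.070, limma adjusted p = 0.00400), a smaller deficit on day 4 than on day 0. Sall4 had -0.52 (SE 0.110, limma adjusted p = 0.0224), a larger deficit on day 4. By both thresholds 3 members were called higher and 0 lower, against 6.84% and 6.04% of all genes tested, or 1079 and 952 genes. These fell to 494 and 418 genes without replicate 1 of the CTCF-K20R EBs and to 463 and 418 without replicate 2. By adjusted p alone 5 were higher and 1 lower, against 14.7% and 12%. By adjusted p alone Sall4 was not called without replicate 1 or 2 of the CTCF-K20R mESCs (limma adjusted p of 0.0680 and 0.0623), nor Lin28a without replicate 1 or 2 of the CTCF-K20R EBs (0.0532 and 0.0584). Without the trend the values were 0.134 and 0.0735.

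Ratios between members within a library do not depend on a factor shared by all genes of that library. Whether the authors' factors also varied between genes was not stated in the sources used here. Pou5f1 was 1.88 times Sox2 in both WT mESC libraries and 1.73 and 1.92 times in the CTCF-K20R mESC libraries. In EBs the ratio was 20.7 and 20.5 in WT and 6.77 and 6.76 in CTCF-K20R, so the pair moved apart in both genotypes and less far in the mutant. Nanog over Sox2 went from 1.18 and 1.17 in WT mESCs to 2.80 and 2.75 in WT EBs, and from 1.22 and 1.28 to 1.70 and 1.63 in CTCF-K20R cells. Utf1 over Sox2 was 0.281 and 0.279 in WT mESCs, 0.177 and 0.188 in CTCF-K20R mESCs, 0.537 and 0.517 in WT EBs, and 1.56 and 1.50 in CTCF-K20R EBs. The ratio was thus lower in mutant than in WT cells on day 0 and higher on day 4. Lin28a over Pou5f1 was lower in CTCF-K20R cells on both days, at 0.100 and 0.091 against 0.165 and 0.166 in mESCs and at 0.567 and 0.598 against 1.20 and 1.20 in EBs.

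**Figure D4:**
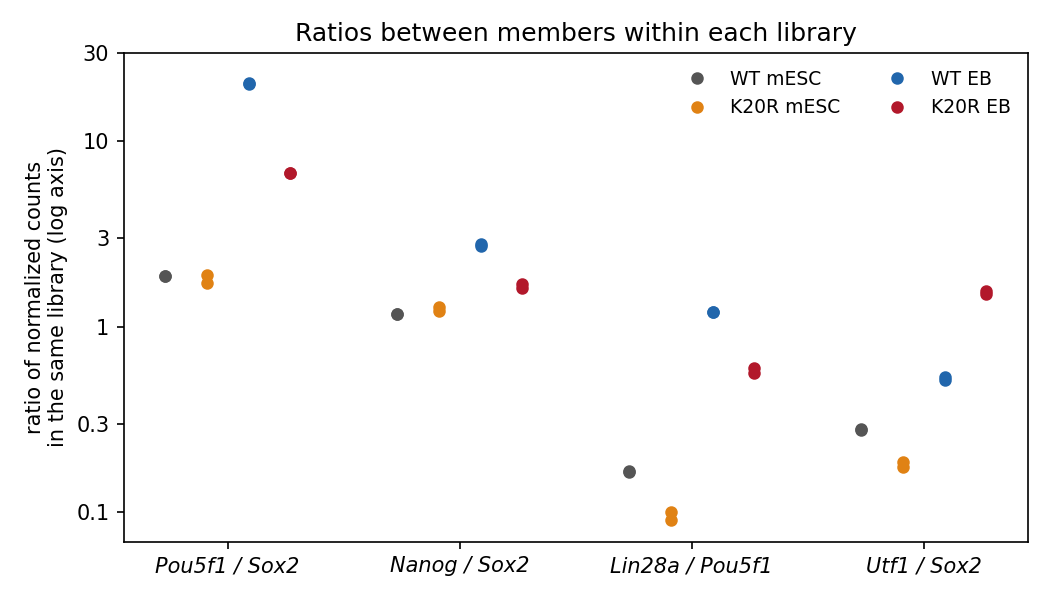
Ratio of the normalized counts of 2 members in the same library (log axis), with 1 point per library and the 4 groups in colour. Pou5f1 over Sox2 is near 1.88 in mESCs, 20.7 and 20.5 in WT EBs and 6.77 and 6.76 in CTCF-K20R EBs.

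To compare levels between genes, each group mean was divided by the length of the gene's longest annotated transcript. In WT mESCs the order was Pou5f1 (18110 normalized counts per kb), Nanog (6974), Sox2 (6385), Utf1 (2997), Lin28a (1166) and Sall4 (1028). CTCF-K20R mESCs had the same first 4 genes, with Sall4 (842) above Lin28a (655). In WT EBs Pou5f1 (9285 per kb) was followed by Lin28a (4331), Sall4 (1607), Nanog (769), Sox2 (298) and Utf1 (263). In CTCF-K20R EBs Utf1, the lowest member in WT EBs, stood second (4023 per kb) after Pou5f1 (15980), ahead of Lin28a (3616), Nanog (2424), Sox2 (1563) and Sall4 (919). The libraries of neighbouring genes in these orders did not overlap in any group, and the orders were the same with the union of exons as length. Together the members took 0.315% and 0.316% of the signal in WT mESCs, 0.294% and 0.295% in CTCF-K20R mESCs, 0.199% in WT EBs, and 0.251% and 0.253% in CTCF-K20R EBs.

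The partners and targets of the core factors were read as a list of 20 genes, all of which were tested. On day 4, 8 were DEGs with a higher level in CTCF-K20R EBs and 1 with a lower level, with a median log2 fold change of 0.78, where the median of all genes was 0.01. Gdf3, a TGF-beta family ligand, was at 45.3 and 48.0 normalized counts in WT EBs and at 467.2 and 482.3 in CTCF-K20R EBs (log2 fold change 3.32, limma adjusted p = 2.76e-05). Nr0b1, a nuclear receptor that binds POU5F1, had a log2 fold change of 2.44 and Foxd3, a forkhead factor of the epiblast, of 2.42, with limma adjusted p of 0.000645 and 0.000138. The lower gene was Tdgf1, the co-receptor of NODAL, at 23707 and 23669 normalized counts in WT EBs against 11856 and 11495 in CTCF-K20R EBs (-1.02, limma adjusted p = 4.17e-05), and it was not called without replicate 2 of the CTCF-K20R EBs. On day 0, 0 of the 20 were DEGs.

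Naive markers were low in the EBs of both genotypes, and 7 of 15 tested were DEGs with a higher level in CTCF-K20R EBs, with 2 lower and a median of 0.64. Esrrb, an orphan nuclear receptor, was at 71.5 and 73.6 normalized counts in WT EBs and at 441.1 and 479.8 in CTCF-K20R EBs (log2 fold change 2.65, limma adjusted p = 2.53e-05), against 17282 and 17343 in WT mESCs. Zfp42 (also called REX1) was at 321.7 and 320.4 in WT EBs and at 750.9 and 699.8 in CTCF-K20R EBs (1.17, limma adjusted p = 0.000133). Klf4, a Kruppel-like factor, went the other way, with 105.8 and 104.5 in WT EBs and 44.3 and 30.8 in CTCF-K20R EBs (-1.48, limma adjusted p = 0.00405). The summed level of the list was 2610 and 2661 in WT EBs, 3719 and 3737 in CTCF-K20R EBs, and 87220 to 92201 in the mESC libraries. Dppa3, at 20.4 normalized counts or less in each library, was too low to be tested.

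Formative and primed markers, which rise when naive cells become epiblast-like, were present in both EBs. Fgf5, the classical epiblast marker, was at 3765 and 3753 normalized counts in WT EBs and at 3205 and 3309 in CTCF-K20R EBs (log2 fold change -0.21, SE 0.458, limma adjusted p = 0.749). The fit pools the spread of both days, and Fgf5 was at 0 and 1.10 in the CTCF-K20R mESCs. This SE thus reflects mainly those low values and not the EB libraries. Otx2, a homeobox factor, was at 3709 in both WT EB libraries and at 3402 and 3436 in CTCF-K20R EBs (-0.12, limma adjusted p = 0.161). Of the 12 genes, 5 were DEGs with a higher level in CTCF-K20R EBs and 1 with a lower level, and the median was 0.83. The DNA methyltransferase gene Dnmt3b was at 14624 and 14620 in WT EBs and 36756 and 38180 in CTCF-K20R EBs (1.36, limma adjusted p = 2.84e-05). Pou3f1 (also called OCT6) was at 253.1 and 258.1 in WT EBs and at 3033 and 2921 in CTCF-K20R EBs (3.54, limma adjusted p = 8.51e-05).

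Paralogs of the members did not move as one group. Of 12 tested, 4 were DEGs with a higher level in CTCF-K20R EBs (Sox1, Sox3, Sox15 and Pou3f1) and 2 with a lower level (Sall3 and Pou6f1), and the first count was 2 without either CTCF-K20R EB library and the second 1 without replicate 2. Sox3 was at 83.0 and 82.5 normalized counts in WT EBs, against 552.5 and 574.4 in CTCF-K20R EBs (log2 fold change 2.75, limma adjusted p = 0.00260). Sox1 was at 1.78 and 1.50 in WT EBs, under the level of 3 reads, and at 40.1 and 53.8 in CTCF-K20R EBs. Sox15 was at 6.69 and 8.88 in WT EBs and at 23.0 and 25.8 in CTCF-K20R EBs (1.53, limma adjusted p = 0.0105). Sall1 was at 5116 and 5092 in WT EBs and 4250 and 4299 in CTCF-K20R EBs (-0.26, limma adjusted p = 0.00450), and Sall3 at 1237 and 1222 against 271.6 and 279.0 (-2.16, limma adjusted p = 6.77e-05). With Sall4, 3 SALL genes were thus lower in CTCF-K20R EBs by adjusted p, though Sall3 alone was a DEG, and Sall2 had a log2 fold change of 0.49 (limma adjusted p = 0.0172).

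Lin28b, the paralog of Lin28a, differed from it on day 4. It was at 1144 and 1156 normalized counts in WT EBs and at 1972 and 1986 in CTCF-K20R EBs (log2 fold change 0.78, limma adjusted p = 0.00394), and on day 0 at 222.5 and 228.5 in WT and 113.9 and 102.1 in CTCF-K20R mESCs (-1.06, limma adjusted p = 0.00513). In the list of 11 tested genes of the LIN28 and let-7 axis, 0 were DEGs with a higher level on day 4 and 1 with a lower level, and the median was -0.13. The lower gene was Hmga2, a chromatin protein whose mRNA is a known target of let-7. Hmga2 was at 10692 and 10706 in WT EBs and at 952.9 and 857.0 in CTCF-K20R EBs (-3.56, limma adjusted p = 2.83e-05). Trim71, another let-7 target, was at 3408 and 3392 in WT EBs and at 4472 and 4439 in CTCF-K20R EBs (0.39, limma adjusted p = 0.00395). Mature let-7 was not measured in these libraries.

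**Figure D5:**
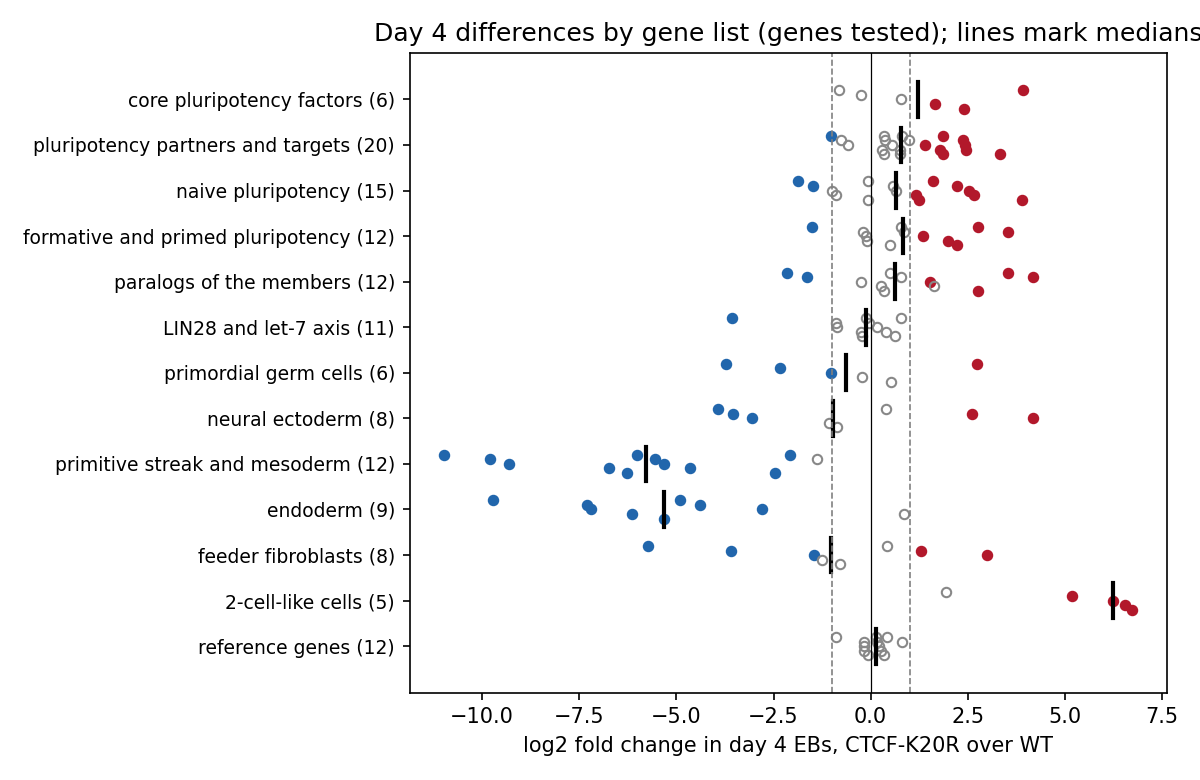
Log2 fold change of CTCF-K20R over WT in day 4 EBs (horizontal axis) for each tested gene of the 13 lists, with the number tested in brackets. Filled points are DEGs (red higher, blue lower), open points are not, black lines mark medians and dashed lines the fold threshold of 1; the core factors have a median of 1.22, and the primitive streak and mesoderm list one of -5.78.

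Markers of the cells that could share the EBs with the pluripotent cells moved with the genotype. Of 12 primitive streak and mesoderm markers, 11 were DEGs with a lower level in CTCF-K20R EBs and 0 with a higher level, with a median log2 fold change of -5.78. T was at 20696 and 20904 normalized counts in WT EBs and at 520.3 and 514.6 in CTCF-K20R EBs (-5.33, limma adjusted p = 2.53e-05), and Mixl1 at 3898 and 3889 against 60.6 and 40.3 (-6.27, limma adjusted p = 0.000489). The summed level of this list was 63935 and 64236 in WT EBs and 3526 and 3608 in CTCF-K20R EBs. Of 9 tested endoderm markers, 8 were lower and 0 higher, and their median was -5.32. Their summed level was 19073 and 19083 in WT EBs against 619.2 and 674.8 in CTCF-K20R EBs. The part of these lineage markers in the differences of the 6 members was not tested.

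Neural and germ cell markers were mixed. Of 8 tested neural ectoderm genes, 2 were DEGs with a higher level in CTCF-K20R EBs (1 without replicate 1 of these EBs) and 3 with a lower level, and the median was -0.97. The lower genes were the homeobox genes Six3 (log2 fold change -3.93, limma adjusted p = 0.0180) and Otx1 (-3.04, limma adjusted p = 0.00431) and the SOX gene Sox21 (-3.54, limma adjusted p = 0.000855). Pax6 was at 12.4 and 16.0 normalized counts in WT EBs and at 100.2 and 84.2 in CTCF-K20R EBs (log2 fold change 2.61, limma adjusted p = 0.00432), and Nes at 1921 and 1884 against 2504 and 2539 (0.41, limma adjusted p = 0.00532). The list summed to 2556 and 2592 in WT EBs and to 2879 and 2910 in CTCF-K20R EBs, a sum led by Nes and opposite in sign to the median. Without Nes it was 670.5 and 672.6 in WT EBs and 375.0 and 371.9 in CTCF-K20R EBs. Of 6 tested germ cell genes, 1 was higher and 3 lower, with a median of -0.63. Prdm1 was at 684.7 and 659.4 in WT EBs and at 49.2 and 50.7 in CTCF-K20R EBs (-3.72, limma adjusted p = 0.000136), and Tfap2c at 258.6 and 256.0 against 113.9 and 137.8 (-1.03, limma adjusted p = 0.00700).

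Feeder cells could add RNA to the mESC libraries. Of 12 fibroblast markers 8 were tested, and on day 0 they had 0 DEGs with a higher level in CTCF-K20R mESCs, 1 with a lower level (Thy1) and a median of -0.04. On day 4, 2 were DEGs with a higher level in CTCF-K20R EBs, 3 with a lower level, with a median of -1.02. The first count was 1 without either CTCF-K20R EB library or without replicate 2 of the WT EBs. Postn and Dcn, which fibroblasts express strongly, were at 0 in all 4 mESC libraries, and Col3a1 was at 1.51 normalized counts or less. Others were present in mESCs, with Col1a1 at 17.4 and 16.0 in WT and 34.3 and 32.2 in CTCF-K20R, Fbn1 at 39.2 and 39.3 against 16.1 and 27.2, and Mmp2 at 103.7 and 97.0 against 130.4 and 125.2. Thy1, a surface protein of fibroblasts and other cells, was at 465.4 and 458.5 in WT mESCs and at 104.2 and 103.3 in CTCF-K20R mESCs (log2 fold change -2.14, limma adjusted p = 0.00155). The summed level of the list, nearly all from Fn1, was 47362 and 47977 in WT mESCs, 44687 and 45387 in CTCF-K20R mESCs, 47788 and 47908 in WT EBs, and 5589 and 5992 in CTCF-K20R EBs. Zscan4 genes, near-identical copies that mark 2-cell-like cells and between which reads may be split, were higher in the mutant on both days, with Zscan4c at 66.7 and 59.5 in CTCF-K20R mESCs against 0 and 1.90 in WT mESCs, and at 101.7 and 110.1 against 0 and 0 in EBs. The list of 5 genes also holds Tmem92, which was not a DEG on either day. The other 4 were DEGs, all higher on both days, against 1.19% of all genes on day 0 and 6.89% on day 4. The list summed to 235.7 and 259.8 in CTCF-K20R mESCs and to 21.4 and 23.5 in WT mESCs. In the EBs it summed to 404.2 and 479.2 in CTCF-K20R and to 5.23 and 7.10 in WT. The part of these markers in the differences of the 6 members was not tested. Of 12 reference genes, 0 were DEGs in either direction on either day, and their median on day 4 was 0.15.

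Genes near the members on the chromosome were read beside them. For the 10 tested genes on each side, the median log2 fold change on day 4 was -0.10 around Sox2, 0.31 around Nanog, 0.21 around Utf1, 0.18 around Pou5f1, -0.07 around Sall4 and -0.03 around Lin28a. On day 0 these medians lay between -0.24 (around Utf1) and 0.07 (around Sox2). Among the 20 neighbours of Nanog 3 were DEGs with a higher and 3 with a lower level on day 4, and among those of Sox2 0 and 3. These counts were 2 and 2 for Lin28a and for Utf1, 2 and 0 for Pou5f1, and 1 and 0 for Sall4. Of all genes tested, 6.89% were DEGs with a higher and 8.65% with a lower level.

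The genes whose pattern was most like that of each member were found by the root mean square difference of log2 values over the 6 samples, each gene centred on its mean, among 11054 genes averaging 100 normalized counts or more. For Pou5f1 they were Lpin1 (0.0516), Raver1 (0.0538) and Plod2 (0.0552), and for Sall4 Tctn2 (0.0460), Ric1 (0.0498) and Midn (0.0534). For Nanog they were Ndufa4l2 (0.0851), Gna15 (0.0853) and Trib3 (0.121), for Lin28a Rcbtb2 (0.0445), Flnc (0.109) and Nbea (0.115), and for Sox2 Gm2381 (0.113), A2m (0.152) and Slc9b1 (0.200). Utf1 had the most distant neighbours, namely 2410007B07Rik (0.166), Patl2 (0.292) and Aass (0.363). Between the members themselves the closest pair was Sox2 and Nanog, at 0.425, and the most distant Sox2 and Lin28a, at 2.71. The samples are few and fall into groups by genotype and day, so these distances describe the 6 samples only.

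Some reads of the members may be shared with other genes. Antisense genes overlap the exons of Pou5f1 (Gm19553, 317 bases), Sall4 (Gm14261, 526 bases) and Lin28a (Gm13061, 234 bases), and whether strand was used in counting was not stated. Gm14261 was at 18.2 to 79.6 normalized counts, where Sall4 was at 4236 to 8156. Of the 31-base words in the transcripts of each gene, 14.2% of those of Pou5f1, 10.7% of Nanog, 8.39% of Sall4, 5.18% of Lin28a, 0.888% of Sox2 and 0 of Utf1 also occur in transcripts of other genes, pseudogenes included, so values of the first genes are the less certain.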

How the data were processed

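RNA-seq of 8 libraries was analysed. According to the labels and the methods, the authors' reads were trimmed with Trim Galore and quantified on mm10 transcripts with salmon. Counts were collapsed to genes with tximport and normalized by the authors with DESeq2. The methods do not say which libraries were normalized together. The unit of the deposited table is a signal, the normalized count of each gene. Low values were not whole reads, so a count test was not used. The annotation release and the use of strand were not given in the sources used here.

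Genes averaging 10 normalized counts or more entered limma 3.58.1 (R 4.3.3) as log2(value + 1), with a mean-variance trend and two-sided tests with Benjamini-Hochberg adjustment, with the WT pair of each day averaged. Fold changes are on the log2(value + 1) scale and understate those of low genes. Alternatives were another pseudocount, filter, scaling or fit, and leaving out each library. Members, gene lists and tests were chosen with earlier results of these data known. The genes named are the 6 members, a fixed set of markers, at most 3 DEGs per direction of other lists, and the 3 nearest genes by pattern. Dcn, Col1a1, Mmp2 and Sall2 were chosen after their values were seen. Gene positions came from GENCODE vM21 (GRCm38) and promoters from RefSeq (GRCm38.p6). 5 of the 6 members matched a promoter. The code was tested on simulated data with an assumed spread. By adjusted p alone, this fit recovered 40% of genes changed 2-fold and 93% of those changed 4-fold (medians over draws). Python 3.11.15 with matplotlib 3.10.9 drew the plots.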

Additional observations from a re-analysis of the deposited data

Results flagged for a closer look

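Of the 6 members, 3 had a difference between CTCF-K20R and WT that differed between days by both thresholds, in the interaction term of limma. Of all genes tested, 6.84% were called higher and 6.04% lower in this term. For Utf1 the log2 fold change on day 4 minus that on day 0 was 4.54 (limma adjusted p = 3.60e-05). For Sox2 it was 2.39 (limma adjusted p = 0.000101), and for Nanog 1.56 (limma adjusted p = 0.000186). Utf1 was the one of these genes that was lower in CTCF-K20R mESCs (log2 fold change -0.61) and higher in CTCF-K20R EBs (3.93). Groups held 2 libraries each, so single libraries that stand apart were not searched for.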

How the results depend on the processing

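Counts of members called were recomputed under each alternative, which gave 182 values for 10 counts, and 177 of these were within 1.5 times the count reported. With an adjusted p under 0.05 alone, the members lower on day 4 numbered 2 in place of 0, those lower on day 0 numbered 2 in place of 0, and the interaction had 5 higher and 1 lower in place of 3 and 0. Leaving out each library in turn gave 1 to 2 members that rose from day 0 to day 4 in CTCF-K20R cells, with 1 left without replicate 1 of the CTCF-K20R EBs, where Utf1 had a log2 fold change of 0.999 (limma adjusted p = 0.00621). The cause was not tested. The day 0 log2 fold change of Sox2, 0.00 as reported, changed sign to -0.0187 (scaled to the same total) and -0.0635 (quantile normalization), and ranged from -0.0360 to 0.0444 when each library was left out in turn. Of 426 values of single members with a test, 422 kept their direction and their call by both thresholds, and all 72 values of the untested WT change kept their direction. By adjusted p alone, Nanog and Sall4 on day 0 passed with all 8 libraries as separate samples (limma adjusted p of 0.0235 and 0.00473), Sall4 on day 0 with a filter at a mean of 100 (0.0404), and Sall4 between the CTCF-K20R days without replicate 1 of the CTCF-K20R EBs (0.0253) or with quantile normalization (0.0263). In the lists, the naive genes called lower numbered 1 without the filter or the trend, and the neural genes called higher numbered 1 without replicate 1 of the CTCF-K20R EBs.

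Over all genes, the day 0 DEGs numbered 188 higher and 410 lower as reported, 445 and 903 with all 8 libraries as separate samples, 54 and 92 with the day 0 samples alone, 23 and 33 without the trend, and 0 and 0 without replicate 1 or 2 of the CTCF-K20R EBs (limma, with 4513 and 4507 genes at an unadjusted p under 0.05). The interaction gave 1079 and 952, 1709 and 1631 with 8 separate libraries, and 494 and 418 or 463 and 418 without replicate 1 or 2 of the CTCF-K20R EBs. The day 4 DEGs, 1087 and 1364, fell to 719 and 890 without replicate 1 of these EBs. Scaling to the same total moved the median of all genes by -0.10 on day 4 and 0.11 between the WT days.

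Deviations of same-numbered libraries had correlations of -0.031 to 0.030. The WT pairs differed by less than sampling noise, so correlations that involve them could not show a pairing by replicate number. Between the CTCF-K20R mESCs and the CTCF-K20R EBs the correlation was -0.010. With all 8 libraries and the replicate block, 3 members were called higher and 0 lower on day 4, 0 and 0 on day 0, 3 and 0 in the interaction, and 2 and 2 between the CTCF-K20R days, the same counts as reported.

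Depth did not limit the members, each of which stood far above 3 reads, while 2 CTCF-K20R libraries per day and 1 effective WT sample limit how well the spread is known.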
